A study of Mus musculus with 56 samples.

Results

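The 9 genes described here are zinc transporters, metallothioneins and the zinc-sensing transcription factor of mouse liver: Slc39a5, Slc39a4, Slc39a14, Slc39a8, Slc30a1, Slc30a10, Mt1, Mt2 and Mtf1. They are 9 of the 45513 genes listed, named in a set that was selected on measured values of these same libraries, so their differences between groups are a description and carry no test. Liver mRNA was sequenced in 56 female APOE*3Leiden.CETP mice, 8 per group, which carried the human APOE*3Leiden and CETP transgenes. All groups, controls included, had the same transgenes, a Western-type diet with 15% cacao butter and 0.15% cholesterol, and were gavaged, with the vehicle (5% carboxymethyl cellulose), a TKI or both. The mice were 9 to 14 weeks of age when taken into the study, before the run-in on the diet and the treatment, and so were older when the liver was sampled. The control group received vehicle only. The other groups received imatinib (150 mg/kg, 2 gavages per day), nilotinib (10 or 30 mg/kg) or ponatinib (3 or 10 mg/kg), the last 2 compounds in 1 gavage per day, which are tyrosine kinase inhibitors (TKIs) of BCR-ABL1, or L-NAME, a nitric oxide synthase inhibitor given at 0.12 to 0.2% in drinking water. TKI treatment lasted 16 weeks, and the length of L-NAME treatment is not given in the sources used here. The model has no leukemia, and its lipid metabolism depends on the human transgenes, which limits how far it stands for other mice.

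Zinc enters the cytosol through transporters of the ZIP family (Slc39a genes) and leaves it, into vesicles or out of the cell, through those of the ZnT family (Slc30a genes). Metallothioneins are small cysteine-rich proteins that bind zinc, copper and cadmium, and the liver is a main site of their synthesis. Free zinc activates MTF1, which binds metal response elements in the promoters of Mt1, Mt2 and Slc30a1, while inflammation through IL-6 and glucocorticoids also raise metallothionein and Slc39a14 mRNA in hepatocytes.

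The genes lie on several chromosomes, with positions given here on GRCm38 as annotated by GENCODE. The importers are Slc39a5 (ENSMUSG00000039878, chr10:128395931-128401229, minus strand), Slc39a4 (ENSMUSG00000063354, chr15:76612383-76617384, minus), Slc39a14 (ENSMUSG00000022094, chr14:70303469-70351425, minus) and Slc39a8 (ENSMUSG00000053897, chr3:135825279-135888572, plus). Both exporters are on the plus strand of chromosome 1, Slc30a1 (ENSMUSG00000037434) at chr1:191906767-191913247 and Slc30a10 (ENSMUSG00000026614) at chr1:185454848-185468762. Mt2 (ENSMUSG00000031762, chr8:94172664-94173568) and Mt1 (ENSMUSG00000031765, chr8:94179082-94180327) are neighbours on the plus strand, and Mtf1 (ENSMUSG00000028890) is at chr4:124802104-124849800, plus.

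The promoters were searched for the core of the metal response element, TGCACNC or TGCGCNC, on both strands of the 250 bases before the RefSeq start (GRCm38.p6). Of the 9 genes, 7 had entries, 9 in all, and Slc39a4 and Slc39a14 had none. At least 1 element was found in 6 of these 9 entries, against 21.41% of all 32851 mouse promoters searched. Shown here are both metallothioneins, whose mRNA varied together, the zinc exporter Slc30a1, and Slc39a5, which had the largest fold change among the 9 genes. Sequences run 5′ to 3′ on the gene's strand, and capitals mark a match on either strand.
Mt1 (chr8:94178839-94179088, plus): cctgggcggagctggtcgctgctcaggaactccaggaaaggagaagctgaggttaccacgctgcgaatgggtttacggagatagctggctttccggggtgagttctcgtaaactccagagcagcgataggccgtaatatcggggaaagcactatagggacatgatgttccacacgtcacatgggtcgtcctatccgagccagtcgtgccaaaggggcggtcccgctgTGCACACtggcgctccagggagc
Mt2 (chr8:94172368-94172617, plus): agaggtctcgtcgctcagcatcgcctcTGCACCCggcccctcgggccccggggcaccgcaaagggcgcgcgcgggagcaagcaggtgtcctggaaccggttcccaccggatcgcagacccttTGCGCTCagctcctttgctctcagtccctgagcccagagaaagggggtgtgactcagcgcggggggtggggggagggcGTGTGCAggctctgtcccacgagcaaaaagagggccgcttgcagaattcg
Slc30a1 (chr1:191906531-191906780, plus): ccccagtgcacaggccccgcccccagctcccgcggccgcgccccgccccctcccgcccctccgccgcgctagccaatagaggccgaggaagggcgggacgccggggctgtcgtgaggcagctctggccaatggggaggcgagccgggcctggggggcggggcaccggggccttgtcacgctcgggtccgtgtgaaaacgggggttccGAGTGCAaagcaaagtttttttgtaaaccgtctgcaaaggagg
Slc39a5 (chr10:128401225-128401474, minus): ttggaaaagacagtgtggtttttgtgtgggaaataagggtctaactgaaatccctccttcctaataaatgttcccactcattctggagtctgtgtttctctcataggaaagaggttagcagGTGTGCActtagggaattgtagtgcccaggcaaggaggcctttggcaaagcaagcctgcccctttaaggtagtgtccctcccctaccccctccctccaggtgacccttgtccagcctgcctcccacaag
The Mt2 window held 3 matches, the first base of each lying at -223, -128 and -50 from the start, and at least 3 were present in 1.263% of all promoters. Mt1 held 1 match at -23, Slc30a1 held 1 at -43, and the first of the 2 Slc39a5 entries held 1 at -129. GENCODE also annotates Mt1 transcripts that start 122 and 152 bases after the RefSeq start, and Mt2 transcripts that start 46 and 242 bases after it, so the windows do not reach the sequence just upstream of those starts. Slc30a10 had 3 matches, of which those at -233 and -232 overlap each other. A match is a description of the letters only, and binding was not measured.

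Read totals on genes ran from 5342379 to 97473341 per mouse, and their median was 7570238. The deepest library was an L-NAME mouse, and the next had 17996732 reads. Levels are given as TMM-normalized CPM (counts divided by the effective depth of each mouse), and levels of different genes are compared per kilobase of exon (RPKM). The hepatocyte markers Alb, Ttr, Cyp2e1, Cps1 and Apoa1 summed to at least 65370 CPM in every mouse, so markers of the labelled tissue were abundant in all libraries. The share of uniquely aligned reads outside annotated genes was 7.97% ± 0.422 in the control group, 8.534% ± 0.612 in the ponatinib 3 mg/kg group, and 9.75% ± 0.691 to 11.045% ± 1.989 in the other groups (SD, n = 8 each). Within groups this share correlated with the level of the 9 genes at Pearson's r between -0.3112 (Slc39a8) and 0.2165 (Slc39a5, n = 56 mice). In whole liver, fewer cells of a type and less RNA per cell cannot be told apart.

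In control mice the metallothioneins had the highest levels per kilobase, 82.6 ± 49.6 RPKM for Mt2 and 65.3 ± 44 RPKM for Mt1 (SD, n = 8), which overlap. Slc39a4 (23.4 ± 5.41 RPKM) and Slc39a14 (21.7 ± 3.59 RPKM) followed, again with overlapping spread. Slc30a1 had 10.02 ± 1.76 RPKM, Slc30a10 5.29 ± 2.65 RPKM and Slc39a8 4.88 ± 0.934 RPKM, and the levels of Slc30a10 and Slc39a8 differed by less than their spread. Mtf1 (2.21 ± 0.469 RPKM) and Slc39a5 (1.12 ± 0.818 RPKM) were lowest. Spread between mice of a group separated the genes as well. The within-group SD of log2 CPM was 1.30 for Mt2, 1.08 for Mt1, 1.06 for Slc39a5 and 0.95 for Slc30a10, against a median of 0.49 over all 14314 tested genes. It was between 0.30 and 0.44 for the other 5 genes.

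Slc39a5 encodes a ZIP importer known from the basolateral membrane of enterocytes and pancreatic acinar cells. Its mRNA was low in control liver, from 0.78 to 6.20 CPM with a median of 2.01. With imatinib it ran from 7.71 to 34.8 CPM with a median of 24.4. All 8 imatinib mice were above every control mouse, as were 0.706% of all tested genes in this comparison. The log2 fold change was 3.21 (SE 0.58, 95% confidence interval 2.05 to 4.37), a 9.26-fold higher level, and stayed between 3.06 and 3.56 when any single mouse was left out. Imatinib changed 10.3% of the 14314 tested genes at an adjusted p below 0.05, and among the 9 genes Slc39a5 was the one within that set.

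In the other groups Slc39a5 overlapped with control. Medians were 3.61 CPM with nilotinib 10 mg/kg, 4.79 with nilotinib 30 mg/kg, 5.29 with ponatinib 3 mg/kg, 5.66 with ponatinib 10 mg/kg and 2.44 with L-NAME. The highest single mouse outside the imatinib group reached 10.4 CPM, with ponatinib 10 mg/kg, which is above the lowest imatinib mouse. Slc39a5 had 0 reads in 3 nilotinib 10 mg/kg mice, 1 ponatinib 10 mg/kg mouse and 1 L-NAME mouse, where 3 reads would correspond to 0.313 to 0.54 CPM. The fold change against control was 1.06 on the log2 scale with ponatinib 10 mg/kg (SE 0.56) and 1.00 with ponatinib 3 mg/kg (SE 0.56), with intervals that include 0. Slc39a5 was lower with ponatinib 10 mg/kg than with imatinib (log2 fold change -2.15, SE 0.55), a call that ended in 8 of 16 cases of a single mouse left out, and higher with imatinib than with nilotinib 30 mg/kg (log2 fold change 2.39, SE 0.56). Doses and schedules differ between these compounds, so these are differences between groups as dosed.

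Markers of the cells in which Slc39a5 is best known were measured beside it. Of the 7 pancreatic acinar markers, 6 had no read in any imatinib or control mouse, and the sum of the 7 was 0 to 2.52 CPM with imatinib and 0 to 0.724 CPM in control mice. Of the 5 enterocyte markers, Alpi and Sis had no read in either group. The sum of the 5 was 60 to 129 CPM with imatinib and 33.9 to 89.8 CPM in control mice. Its median was 61 CPM in control mice, 88.4 with imatinib and 74.8 to 93.6 over all treated groups, highest with L-NAME. Of these 5 markers 1 passed the expression filter, and it was not called with imatinib. The part of these markers in the level of Slc39a5 was not tested. The summed level of 5 Kupffer cell markers was 337.2 to 748.6 CPM with imatinib and 636.7 to 1180 CPM in control mice, and its part in the level of Slc39a5 was not tested. The gene Ankrd52 overlaps Slc39a5 on the opposite strand, and the library kit is not stated to keep strand. Ankrd52 had 29.5 ± 6.64 CPM in control mice and 17.5 ± 6.43 CPM with imatinib (SD, n = 8 each), a difference in the opposite direction to that of Slc39a5.

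**Figure D1:**
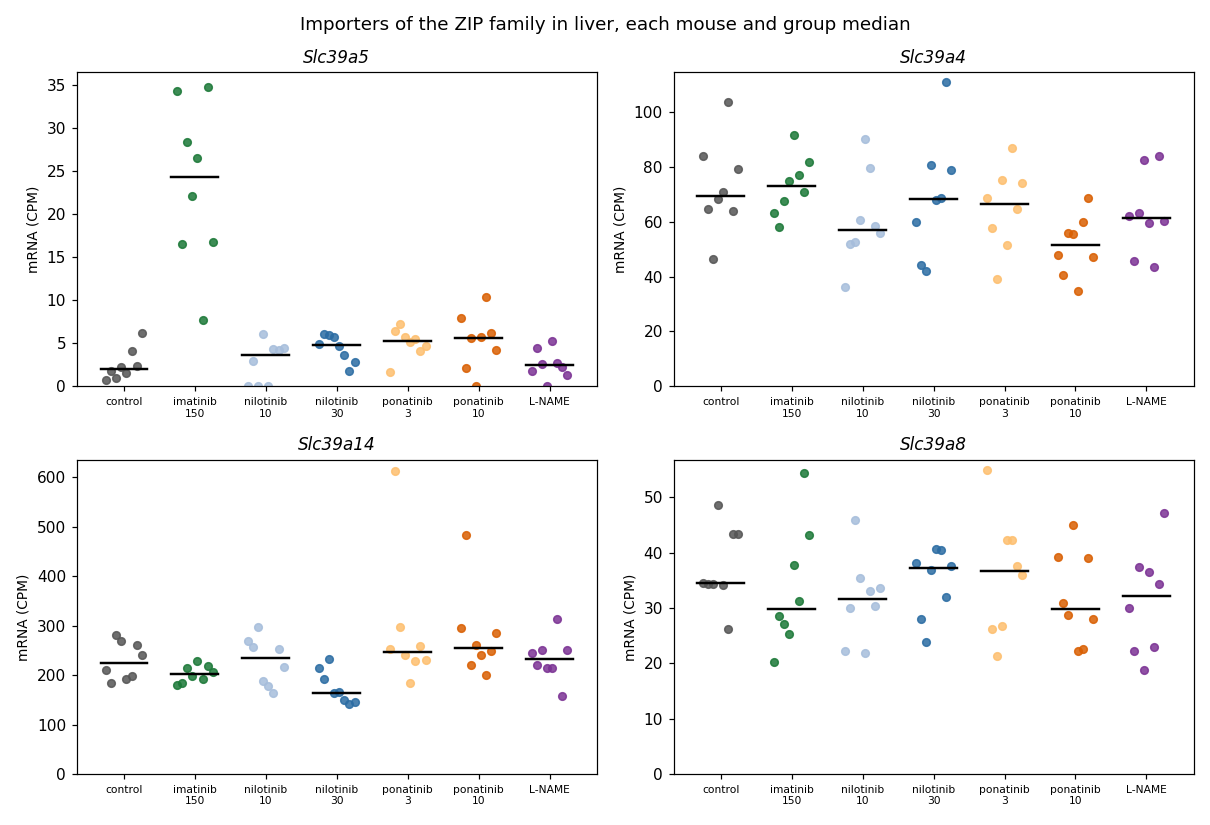
Levels of the importers Slc39a5, Slc39a4, Slc39a14 and Slc39a8 in CPM (vertical axis, from 0) in each of 8 mice per group (points), with the group median as a bar. All 8 imatinib mice lie above every control mouse for Slc39a5, while single ponatinib mice at 612.5 and 482.7 CPM stand apart for Slc39a14.

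Slc39a4 encodes the importer that takes up dietary zinc in the gut, and it was measured in all mice. Control mice had 46.5 to 104 CPM, with a median of 69.5. With ponatinib 10 mg/kg the range was 34.6 to 68.8 CPM with a median of 51.7, and all 8 mice were below the control median, 2 of them below every control mouse. The log2 fold change was -0.50 (SE 0.17), within the 13.1% of tested genes that ponatinib 10 mg/kg changed at an adjusted p below 0.05. Leaving out single mice ended this call in 8 of 16 cases, ponatinib 10 mg/kg replicate 2 among them, as did the share of reads outside genes as a covariate (log2 fold change -0.41). In the other groups medians were 57.1 to 72.9 CPM and overlapped with control, and the fold changes lay between -0.26 with nilotinib 10 mg/kg and 0.01 with imatinib on the log2 scale.

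Slc39a14 encodes an importer of zinc, iron and manganese that is known to rise in liver during inflammation. Its control level was 184.4 to 280.3 CPM with a median of 225.5. Nilotinib 30 mg/kg mice had 142.4 to 233.5 CPM with a median of 164.8, and 5 of the 8 were below every control mouse (log2 fold change -0.38, SE 0.16). Ponatinib medians were 247 CPM at 3 mg/kg and 254.8 CPM at 10 mg/kg, and each of these groups held 1 mouse far above the rest, at 612.5 and 482.7 CPM. Without those mice the log2 fold changes against control were 0.08 at 3 mg/kg and 0.13 at 10 mg/kg, in place of 0.33 and 0.29. Slc39a14 was higher with ponatinib 10 mg/kg than with nilotinib 30 mg/kg (log2 fold change 0.67, SE 0.16), a call that ended without ponatinib 10 mg/kg replicate 2. Slc39a8, its closest relative in the family and an importer of zinc and manganese, stayed within 18.8 and 55 CPM over all mice, and its group medians ran from 29.8 CPM with ponatinib 10 mg/kg to 37.2 with nilotinib 30 mg/kg. Its log2 fold changes against control lay between -0.27 and -0.06, each with an interval that includes 0.

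Of the exporters, Slc30a1 encodes the zinc exporter of the plasma membrane and is a textbook target of MTF1. Control mice had 36.5 to 66.8 CPM with a median of 52.2. Group medians ran from 39.8 CPM with nilotinib 30 mg/kg, where 7 of 8 mice were below the control median, to 57.8 CPM with ponatinib 3 mg/kg, where 6 of 8 were above it. The log2 fold changes were -0.35 (SE 0.15) and 0.21 (SE 0.15). With group means removed, its correlation was r = 0.132 with Mt1 and r = 0.2523 with Mt2 (n = 56 mice).

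Slc30a10 encodes a transporter of the ZnT family that exports manganese, from hepatocytes into bile. It varied more between mice of a group than between group medians. Control mice had 10.7 to 51.6 CPM with a median of 31.9. With ponatinib 10 mg/kg, 5 mice had 15.6 to 24.6 CPM and the other 3 had 91 to 99.9 CPM, with no mouse between. Imatinib showed 5 mice at 10.9 to 25 CPM and 3 at 59.1 to 62.4 CPM. Nilotinib 30 mg/kg had the highest median, 54.4 CPM (12.4 to 83 CPM). The log2 fold changes of 0.71 with nilotinib 30 mg/kg (SE 0.42) and 0.64 with ponatinib 10 mg/kg (SE 0.42) had intervals that include 0. Over 56 mice the genes most like Slc30a10 were Pnkd (r = 0.8603), Clpx (r = 0.8564) and Insig2 (r = 0.8487), and with group means removed these were 0.872, 0.8835 and 0.8873. Insig2 encodes an endoplasmic reticulum protein that holds back the processing of SREBP transcription factors. These correlations describe libraries that share depth and normalization.

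Mt1 and Mt2 were the genes with the highest control levels per kilobase and the widest spread. Mt1 ran from 15.9 to 169.6 CPM in control mice with a median of 74.5. With L-NAME it ran from 131.3 to 466 CPM with a median of 285.6, and 7 of 8 mice were above every control mouse. With ponatinib 10 mg/kg it ran from 20.3 to 1184 CPM with a median of 225.9, and 6 of 8 mice were above every control mouse while 2 were below the control median. Ponatinib 3 mg/kg gave 53.2 to 565.5 CPM with a median of 167.8, and 4 of 8 mice were above every control mouse. Medians with imatinib (103.9 CPM) and nilotinib 10 mg/kg (93.1 CPM) were close to that of control. With nilotinib 30 mg/kg the median was 37.4 CPM, although 1 mouse reached 285 CPM, and without that mouse the log2 fold changes against control were -0.60 for Mt1 and -1.17 for Mt2.

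The log2 fold change of Mt1 was 1.94 with ponatinib 10 mg/kg (SE 0.49) and 1.78 with L-NAME (SE 0.49), that is 3.84-fold and 3.44-fold higher. It was 1.28 with ponatinib 3 mg/kg (SE 0.49), 0.64 with imatinib, and 0.25 and 0.02 with nilotinib at 10 and 30 mg/kg. The ponatinib 10 mg/kg and L-NAME values were within the genes past an adjusted p of 0.05, which were 13.1% with ponatinib 10 mg/kg and 11.8% with L-NAME. The L-NAME value stayed between 1.62 and 2.02 and kept its call whichever mouse was left out. The ponatinib 10 mg/kg value fell to 1.20 and lost its call without the mouse at 1184 CPM, replicate 2, and kept it without any of the other 15 mice. The remaining 7 ponatinib 10 mg/kg mice had a median of 221.5 CPM.

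Mt2 followed Mt1 closely. Its level was 11.5 to 95.1 CPM in control mice with a median of 44.7, and 65.4 to 233 CPM with L-NAME with a median of 153.3, where 6 of 8 mice were above every control mouse. Ponatinib 10 mg/kg gave 5.17 to 761 CPM with a median of 90.5, and ponatinib 3 mg/kg gave 12.5 to 250.7 CPM with a median of 95.6. The log2 fold changes were 1.83 with ponatinib 10 mg/kg (SE 0.59), 1.63 with L-NAME (SE 0.59) and 1.16 with ponatinib 3 mg/kg (SE 0.58). Of these, only that with ponatinib 10 mg/kg was within the genes past an adjusted p of 0.05, and it was not without replicate 2, where it was 0.86, or without 4 single control mice. With L-NAME, Mt2 entered the called set when the groups were fitted alone (log2 fold change 1.64, SE 0.33), with DESeq2 (1.65) and with limma voom (1.83). Imatinib had 5 mice at 9 to 31.7 CPM and 3 at 101.9 to 125 CPM.

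The correlation of Mt1 with Mt2 over 56 mice was r = 0.9043, and 0.8892 with group means removed, and Mt2 was the gene most like Mt1 of all 14313 others. The next were Rnase4 (r = 0.8097) and Kng1 (r = 0.7452). The number of Mt1 reads per Mt2 read had a median of 1.49 in control mice (1.38 to 1.93) and of 3.16 with imatinib (1.19 to 7.86), and medians of 1.82 to 2.36 in the other groups. Mt1 and Mt2 are close paralogs, and reads with several alignments entered no count, which leaves the split between them uncertain.

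**Figure D2:**
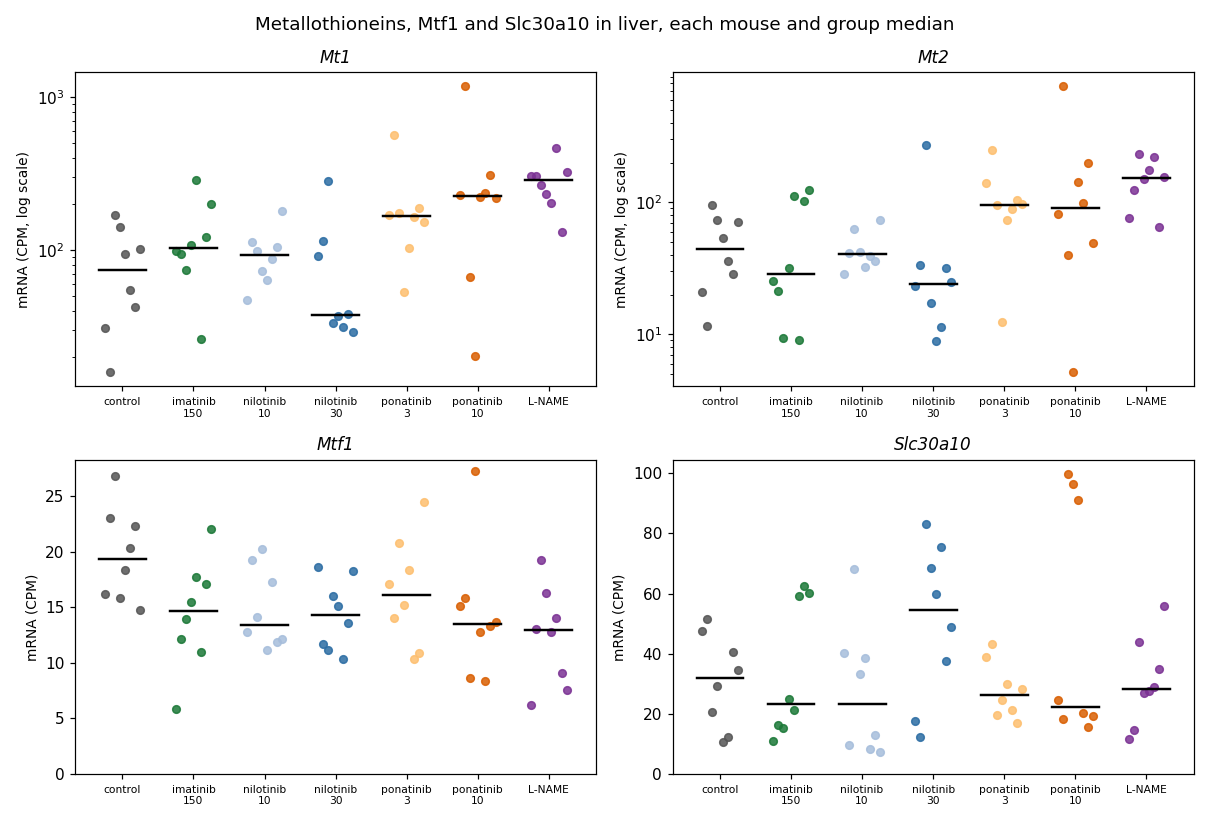
Levels of Mt1 and Mt2 (CPM, log axes) and of Mtf1 and Slc30a10 (CPM, linear axes from 0) in each mouse (points) with group medians (bars). The L-NAME group has the highest median for both metallothioneins (285.6 and 153.3 CPM), single ponatinib and nilotinib mice stand apart, and Slc30a10 falls into separate levels with ponatinib 10 mg/kg (15.6 to 24.6 and 91 to 99.9 CPM).

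Mtf1 was lower in treated groups by its median. Control mice had 14.8 to 26.8 CPM with a median of 19.3, and the medians of treated groups ran from 12.9 CPM with L-NAME to 16.2 CPM with ponatinib 3 mg/kg. All 8 L-NAME mice and all 8 nilotinib 30 mg/kg mice were below the control median, and 6 L-NAME mice were below every control mouse. The log2 fold change was -0.67 with L-NAME (SE 0.22), within the called set, and between -0.45 and -0.26 with the TKIs, outside it. The L-NAME call was lost when any of 6 single mice was left out, and with the share of reads outside genes as a covariate (log2 fold change -0.48). With ponatinib 10 mg/kg, Mtf1 entered the called set without replicate 4, the mouse with 27.2 CPM, where the log2 fold change was -0.65. L-NAME was not compared directly with any TKI. The gene 1110065P20Rik overlaps Mtf1 on the opposite strand, and it had 11.4 ± 3.82 CPM in control mice and 15.6 ± 4.73 CPM with L-NAME (SD, n = 8 each). With group means removed, Mtf1 correlated with Mt1 at r = -0.064 and with Mt2 at r = 0.038, and of the 9 genes it was closest to Slc30a1 (r = 0.3185, n = 56 mice).

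**Figure D3:**
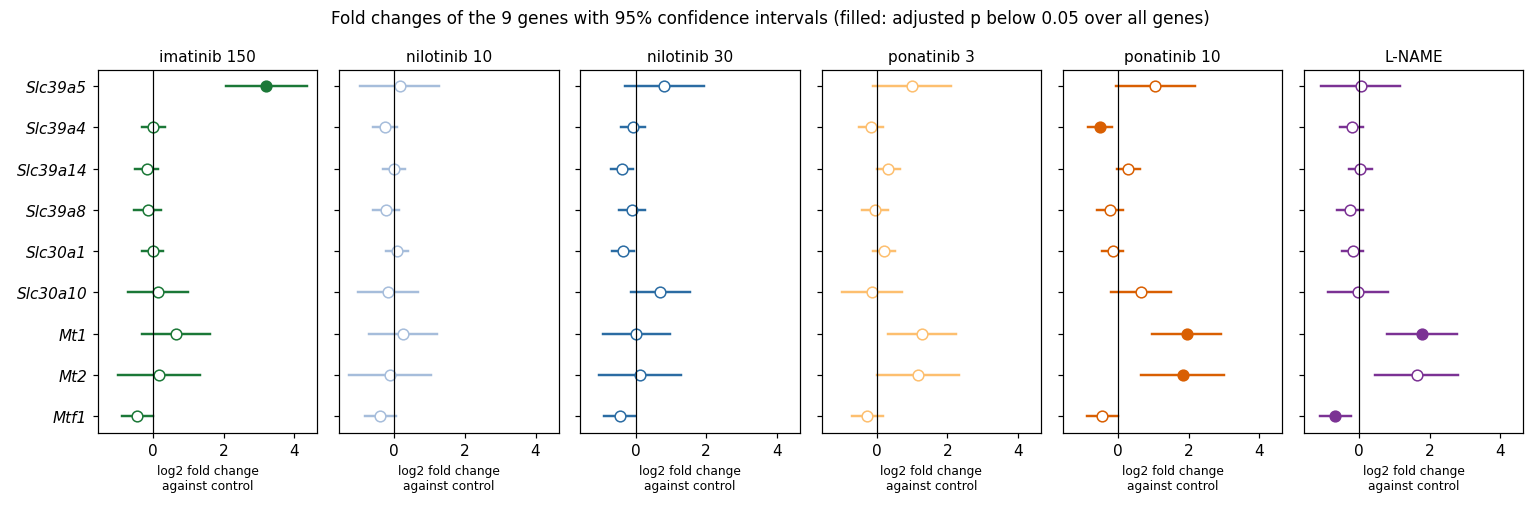
Log2 fold change of each of the 9 genes against control (horizontal axis) with its 95% confidence interval (line) in the 6 treated groups. Filled points are within the genes past an adjusted p of 0.05, namely Slc39a5 with imatinib at 3.21, Slc39a4, Mt1 and Mt2 with ponatinib 10 mg/kg, and Mt1 and Mtf1 with L-NAME.

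The comparisons with control share the same 8 control mice. In them the number of the 9 genes past an adjusted p of 0.05 was 1 with imatinib, 3 with ponatinib 10 mg/kg and 2 with L-NAME, where 10.3%, 13.1% and 11.8% of all tested genes passed. It was 0 with nilotinib 10 mg/kg, nilotinib 30 mg/kg and ponatinib 3 mg/kg, where 1.41%, 5.77% and 0.0419% of all tested genes passed. At an unadjusted p below 0.05, edgeR gave 0, 3 and 2 of the 9 genes in the last 3 groups, in that order, beside 2035, 2673 and 1426 of the 14314 tested genes. The median log2 fold change of the 9 genes was 0.29 with ponatinib 10 mg/kg and 0.21 with ponatinib 3 mg/kg, against -0.01 over all tested genes in both, and it was between -0.12 and 0.01 in the other groups. The median with ponatinib 10 mg/kg is the value of Slc39a14, which was 0.13 without ponatinib 10 mg/kg replicate 2. Nothing is read from these counts and medians, because the genes were chosen by their values here. In direct comparisons, 0 of the 9 genes differed between the ponatinib doses (1.39% of all genes did, and 1 of the 9 and 2056 of all genes were below an unadjusted p of 0.05). Between the nilotinib doses edgeR called 0% of all genes and 0 of the 9, although 3 of the 9 and 812 of all genes were below an unadjusted p of 0.05, and DESeq2 called 2 genes and limma voom 0. Of the 9 genes, 1 differed when ponatinib 10 mg/kg was set against imatinib (1.08% of all genes), 2, Mt1 and Slc39a14, when it was set against nilotinib 30 mg/kg (1.88%), and 1 when imatinib was set against nilotinib 30 mg/kg (3.59%). Without ponatinib 10 mg/kg replicate 2, both calls against nilotinib 30 mg/kg ended. The Mt1 fold change between ponatinib 10 and 3 mg/kg was 0.66 on the log2 scale, with an interval from -0.29 to 1.62.

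The mice with the highest metallothionein levels were compared with genes of the acute-phase response. The ponatinib 10 mg/kg mouse with 1184 CPM of Mt1 also had 761 CPM of Mt2, 482.7 CPM of Slc39a14 and 11884 CPM of Saa1, a serum amyloid A gene that liver makes during inflammation. The other 7 mice of that group had 9.94 to 110.6 CPM of Saa1. The ponatinib 3 mg/kg mouse with 565.5 CPM of Mt1 had 612.5 CPM of Slc39a14, the highest of all 56 mice, and 1591 CPM of Saa1. Other mice with high Mt1 differed in Saa1. Ponatinib 10 mg/kg replicate 7 had 311.6 CPM of Mt1 and 30.7 of Saa1, and imatinib replicate 5 had 287.1 and 23.1. Their Saa1 ranked 51 and 54 of 56. Nilotinib 30 mg/kg replicate 3 had 285 CPM of Mt1 and 300.6 of Saa1, which ranked 6. With group means removed, Mt1, Mt2 and Slc39a14 correlated with the mean of 10 acute-phase genes at r = 0.5533, 0.6102 and 0.576, and with each other at r = 0.5958 (Mt1 with Slc39a14) and 0.4639 (Mt2 with Slc39a14). Correlation with the mean of 8 glucocorticoid-responsive genes was -0.0014 for Mt1 and -0.1685 for Mt2.

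Of the 10 acute-phase genes, 5 rose with ponatinib 10 mg/kg, Saa2 by 4.84, Saa1 by 3.77, Orm2 by 2.27, Apcs by 1.37 and Orm1 by 1.08 on the log2 scale. Among all tested genes 13.1% were called in that comparison. The edgeR adjusted p was 0.0008015 for Saa2 and 0.005166 for Orm1. This list and those below were chosen with earlier results of these data known, so their adjusted p are descriptive. Without replicate 2 none of the 10 acute-phase genes was called higher and 1 was called lower. Log2 fold changes were then -1.17 for Saa1 and -0.88 for Saa2, while 1970 genes in all were called against 1877 with replicate 2. In the L-NAME group none of the 10 passed, beside 11.8% of all tested genes. Their edgeR adjusted p was 0.07321 for Orm1 and 0.1114 for Apcs. The median log2 fold change was 0.83 over the 10 genes, against 0.02 over all genes. Without control replicate 3 there were 2 that rose with L-NAME, and 1 without L-NAME replicate 7, where 1763 and 1565 genes in all were called. Saa1 in that group ran from 95.5 to 458.1 CPM against 59.4 to 207.6 CPM in control mice. Imatinib mice had 17.5 to 69 CPM of Saa1, and of the 10 genes Stat3, the transcription factor downstream of IL-6, fell in them (log2 fold change -0.51, edgeR adjusted p = 0.04704), a call kept in 5 of 16 fits with a single mouse left out. Imatinib changed 10.3% of all tested genes. Of the 8 glucocorticoid-responsive genes, Tat, which encodes tyrosine aminotransferase, fell with L-NAME (log2 fold change -0.78), imatinib (-0.62) and nilotinib at 10 and 30 mg/kg (-0.73 and -0.87). In these comparisons 11.8%, 10.3%, 1.41% and 5.77% of all tested genes passed, in that order. The Tat call with nilotinib 10 mg/kg was kept in 13 of 16 fits with a single mouse left out and that with imatinib in 15. The other 7 glucocorticoid-responsive genes did not pass in any comparison with control. The summed level of 5 erythroid markers was 148.7 to 420.1 CPM in control mice, 189.6 to 1331 and 161.7 to 1128 CPM with ponatinib at 3 and 10 mg/kg, and 251.8 to 656.1 CPM with L-NAME. With ponatinib 10 mg/kg 4 of the 5 rose, beside 13.1% of all tested genes. That count became 2 without ponatinib 10 mg/kg replicate 6, where 1511 genes in all were called. It became 3 without ponatinib 10 mg/kg replicate 3, control replicate 1 or control replicate 6, where 1539, 1425 and 1504 were called. With group means removed, the mean of the erythroid markers correlated with Mt1 at r = 0.0379 and with Mt2 at r = 0.0667. The part of these genes in the metallothionein levels was not tested.

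**Figure D4:**
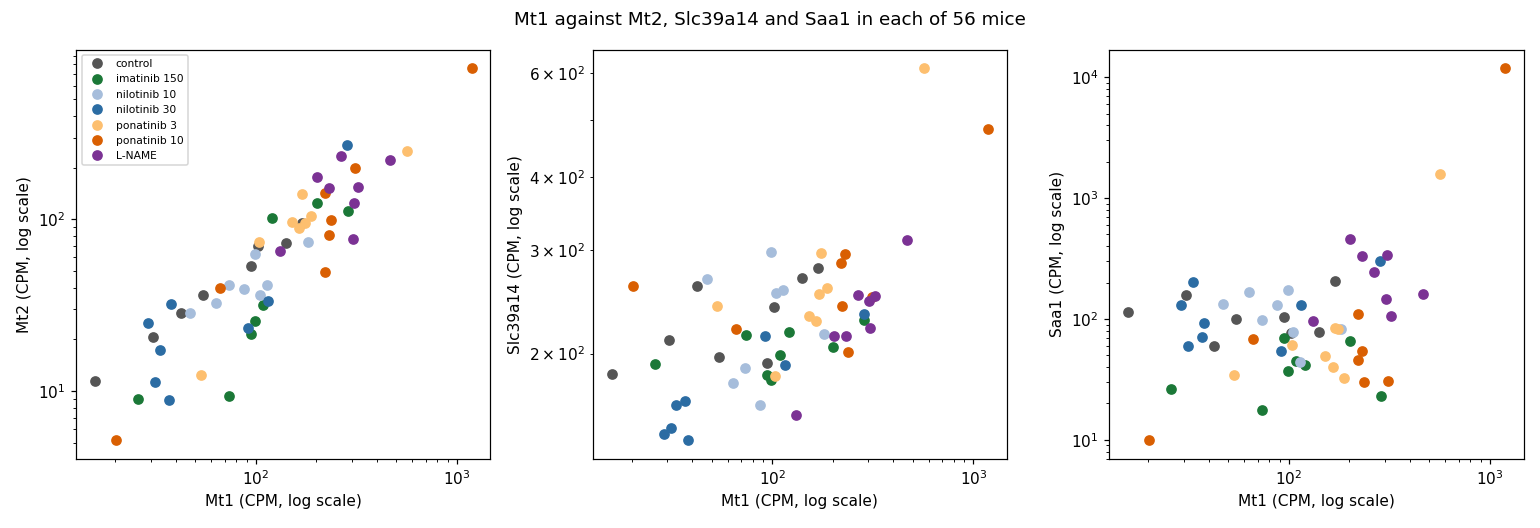
Mt1 against Mt2, Slc39a14 and Saa1 in each of 56 mice, all in CPM on log axes, coloured by group. Mt2 follows Mt1 over the whole range, whereas Slc39a14 and Saa1 are far from the rest chiefly in the ponatinib mice with 1184 and 565.5 CPM of Mt1.

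All other named genes of both transporter families were followed as well. Of 10 other Slc39a genes 9 were tested, of 8 other Slc30a genes 6 were tested, and Mt3 and Mt4, the metallothioneins of brain and of squamous epithelium, had no read in any mouse. None of these genes rose in any comparison with control, and 3 fell in at least 1 of them. Ponatinib at 10 mg/kg had 3 such calls, beside 13.1% of all tested genes. L-NAME, imatinib, and the higher and the lower nilotinib dose had 1 call each. There 11.8%, 10.3%, 5.77% and 1.41% of all tested genes passed, in that order. Ponatinib at 3 mg/kg had 0 calls, beside 0.0419%. Whether the families differed from all genes was not tested. Slc39a9, a ZIP of the Golgi and plasma membrane, had 70.8 ± 5.23 CPM in control mice and 48.2 ± 7.54 CPM with L-NAME (SD, n = 8 each). It fell by 0.55 on the log2 scale with L-NAME (SE 0.12, adjusted p = 0.000736), by 0.52 with nilotinib 30 mg/kg (adjusted p = 0.003791) and by 0.49 with ponatinib 10 mg/kg (adjusted p = 0.002288). These 3 calls held without any single mouse. Slc39a11, another ZIP, had 36.2 ± 6.76 CPM in control mice and fell by 0.71 with ponatinib 10 mg/kg (adjusted p = 0.005483), without dependence on a single mouse, and by 0.55 with imatinib (adjusted p = 0.0417), where 10 of 16 mice left out singly ended the call. Slc30a5, which loads zinc into the secretory pathway, fell by 0.56 with nilotinib 10 mg/kg (adjusted p = 0.04838) and by 0.47 with ponatinib 10 mg/kg (adjusted p = 0.03378), and these calls ended without any of 11 and 8 single mice. With the share of reads outside genes as a covariate 0 of these genes passed in any of the 6 comparisons. Calls over all tested genes fell too, from 1471 to 653 with imatinib and from 1877 to 369 with ponatinib 10 mg/kg. They fell from 1688 to 258 with L-NAME, 826 to 96 with nilotinib 30 mg/kg and 202 to 13 with nilotinib 10 mg/kg.

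**Figure D5:**
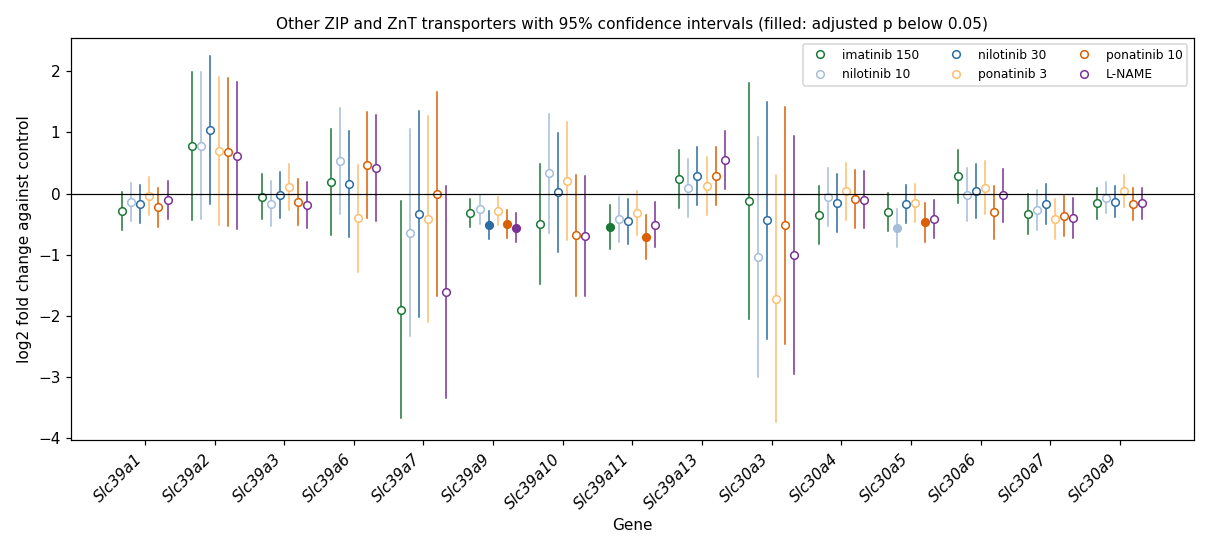
Log2 fold change against control (vertical axis) of the 15 tested ZIP and ZnT genes outside the described set, with 95% confidence intervals (lines), coloured by group. Filled points passed an adjusted p of 0.05, and all of them, for Slc39a9, Slc39a11 and Slc30a5, lie below 0.

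Other genes of metal handling were followed through lists of copper, manganese and MTF1-linked genes. Of 9 copper genes, 5 rose and 2 fell with L-NAME, 5 rose and 1 fell with ponatinib 10 mg/kg, 4 rose with imatinib, 3 rose and 2 fell with nilotinib 30 mg/kg, 1 rose with nilotinib 10 mg/kg, and none passed with ponatinib 3 mg/kg. The shares of all genes called in these comparisons were 11.8%, 13.1%, 10.3%, 5.77%, 1.41% and 0.0419%, in that order. Of these copper calls, Cox17 with imatinib and Commd1 with L-NAME were kept in 4 of 16 fits with a single mouse left out, Sod1 with nilotinib 10 mg/kg and Slc31a1 with ponatinib 10 mg/kg in 6, and Commd1 and Atp7b with nilotinib 30 mg/kg in 8. Sod1, which encodes copper-zinc superoxide dismutase, had 224.3 ± 43.9 CPM in control mice and 428.5 ± 91.6 CPM with imatinib (SD, n = 8 each), a log2 fold change of 0.93 (adjusted p = 1.945e-05). Atox1, a copper chaperone, rose by 0.76 with imatinib (adjusted p = 0.0002414) and by 0.62 with L-NAME (adjusted p = 0.001924). Commd1, which takes part in copper export, rose by 0.94 with ponatinib 10 mg/kg (adjusted p = 0.001486), and Cox17, a mitochondrial copper chaperone, by 0.81 (adjusted p = 0.0111). Atp7b, the copper pump of hepatocytes, and Slc31a1, the copper importer of the plasma membrane, fell with L-NAME (log2 fold changes -0.53 and -0.39, adjusted p = 0.01181 and 0.006263). Whether calls of the copper, MTF1-linked and manganese genes hold with the share of reads outside genes as a covariate was not examined. That covariate lowered calls over all genes from 1688 to 258 with L-NAME, from 1877 to 369 with ponatinib 10 mg/kg and from 1471 to 653 with imatinib.

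Of 5 genes linked to MTF1 outside the zinc families, Selenow, a selenoprotein gene, rose with L-NAME (log2 fold change 0.74, adjusted p = 0.0005422), imatinib (0.52, adjusted p = 0.0152) and ponatinib 10 mg/kg (0.52, adjusted p = 0.01289). Csrp1 fell with imatinib (log2 fold change -0.83, adjusted p = 0.008162) and ponatinib 10 mg/kg (-0.63, adjusted p = 0.04004), the latter call ending without any of 10 single mice. Ndrg1, Selenoh and Gclc did not pass in any of the 6 comparisons with control. The shares of all tested genes called were 11.8% with L-NAME, 10.3% with imatinib, 13.1% with ponatinib 10 mg/kg and 5.77% with nilotinib 30 mg/kg. Of 5 manganese and divalent metal genes, Arg1, the manganese-dependent arginase of the urea cycle, fell with nilotinib 30 mg/kg (log2 fold change -0.41, adjusted p = 0.03095), a call kept in 10 of 16 fits with a single mouse left out, and the other 4 did not pass.

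The genes whose pattern over 56 mice was most like that of the importers were named by the same measure. For Slc39a5 these were Cyp1a2 (r = 0.6614), Fbxw9 (r = 0.6536) and Abhd6 (r = 0.6442), and with group means removed the values fell to 0.2675, 0.4409 and 0.4749. For Slc39a4 they were Ugdh (r = 0.6462), Gstm3 (r = 0.6331) and Cd36 (r = 0.6251), and with group means removed they were 0.5993, 0.6172 and 0.5417. Slc39a4 and Slc39a14 varied in opposite directions within groups (r = -0.4933, n = 56 mice).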

How the data were processed

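Liver poly(A) RNA of 56 mice was sequenced, 8 per group, grouped by the labels of compound and dose. The authors deposited raw counts of reads per gene, 1 file per mouse, made according to the submitters' processing notes with TopHat2 2.0.14, Bowtie2 2.1.0, SAMtools 0.1.18 and HTSeq 0.6.1p1 on GRCm38. Reads with several alignments entered no count, and 5 summary rows per file stayed out of library sizes. A stranded kit is not stated. Of 45513 genes, 44671 matched GENCODE vM21, which gave symbols, exon lengths and positions. edgeR 4.0.16 (R 4.3.3) fitted all 56 mice by its quasi-likelihood test with TMM after filterByExpr, which left 14314 genes, the 9 genes included, and p-values were Benjamini-Hochberg adjusted over all of them, with calls at 0.05. SE and 95% intervals come from this fit. The test was run on simulated data: among 14074 genes simulated for imatinib against control, 78 of 100 genes changed by 2 on the log2 scale and 50 of 100 changed by 1 were recovered, with 7 false calls. The 9 genes and the lists were chosen with earlier results of these data known, so the adjusted p printed for list genes describe them and test no prior choice. Named genes were the 9, up to 4 per list among those called in a comparison with control, by size of fold change, and the 3 most correlated genes for Slc39a5, Slc39a4, Slc30a10 and Mt1. Orm1, Stat3, Atp7b and Slc31a1 were named after their values were seen. Log2 CPM was log2(CPM + 0.5). The 8 samples of a group are separate mice, and no batch is labelled. Over 196 pairs of mice in a group the chi-square of their counts was at least 10.32 per degree of freedom, so no pair agreed within counting noise. Alternatives were DESeq2 size factors, the DESeq2 1.42.0 Wald test, limma 3.58.1 voom, no filter, an unadjusted p below 0.01, fits of 2 groups, the share of reads outside genes as a covariate, and each mouse left out.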

Additional observations from a re-analysis of the deposited data

Results flagged for a closer look

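In 63 combinations of gene and group, 9 held 1 mouse whose gap to the next exceeded the 95% limit of Dixon's test for 8 samples. The limit assumes normally distributed values, but it was applied to CPM and not to log2 CPM. Mt1 and Mt2 also vary together, so no rate by chance is given, and the flags only mark mice that stand apart in CPM. Ponatinib 10 mg/kg replicate 2 was highest for Mt1 (1184.3 CPM, next 311.6), Mt2 (761 CPM, next 199.9) and Slc39a14 (482.67 CPM, next 295.57). Ponatinib 3 mg/kg replicate 2 was highest for Mt1 (565.54 CPM, next 187.32) and Slc39a14 (612.51 CPM, next 297.31). Nilotinib 30 mg/kg replicate 3 was highest for Mt1 (284.98 CPM, next 115.04), Mt2 (272 CPM, next 33.3) and Slc30a1 (61.313 CPM, next 44.427). Ponatinib 10 mg/kg replicate 4 was highest for Mtf1 (27.225 CPM, next 15.875).

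In direct comparisons of treated groups, Mt1 (log2 fold change 1.9167) and Slc39a14 (0.6692) were called when ponatinib 10 mg/kg was set against nilotinib 30 mg/kg. Both calls ended without ponatinib 10 mg/kg replicate 2. Slc39a5 was called between ponatinib 10 mg/kg and imatinib (-2.1507), which some single mice left out ended, and between imatinib and nilotinib 30 mg/kg (2.3931). The genes were chosen by their values here, so these calls are a description and carry no test. Compounds and doses differ together in these comparisons and cannot be told apart.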

How the results depend on the processing

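Of the fold changes of the 9 genes against control, none changed sign while called. Slc39a5 with imatinib and Mt1 with L-NAME kept their calls under every alternative. The count of the 9 genes called moved from 0 to 1 between the nilotinib doses and from 1 to 5 between ponatinib 10 mg/kg and imatinib at an unadjusted p below 0.01 (189 and 585 of all 14314 genes), and from 2 to 1 for ponatinib 10 mg/kg against nilotinib 30 mg/kg with limma voom and with 2 groups fitted alone. The last 2 fits called 263 of 14314 and 126 of 12649 genes in all, against 269 of 14314. The count of other zinc family genes called with imatinib, 1, became 2 with limma voom, an unadjusted p below 0.01 or 2 groups, and 0 without a filter or with the covariate. Calls over all genes with imatinib were 1767, 1847 and 1687 in the first 3 of these fits and 1335 without a filter, against 1471. With nilotinib 10 mg/kg the count of other zinc family genes went from 1 to 0 with DESeq2 size factors, no filter, 2 groups or the covariate. Calls over all genes were 226, 127, 286 and 13 in these fits, in that order, against 202. With the covariate the count of other zinc family genes went to 0 with nilotinib 30 mg/kg (from 1), ponatinib 10 mg/kg (from 3) and L-NAME (from 1). With L-NAME it was 6 with limma voom, 3 at an unadjusted p below 0.01 and 4 with 2 groups. Calls over all genes with L-NAME rose too, from 1688 of 14314 to 2561 and 1997 of 14314 and to 2440 of 12866, in that order. The covariate lowered calls over all genes as well, to 653 with imatinib, 369 with ponatinib 10 mg/kg and 258 with L-NAME. With single mice left out, the 9 genes gave 0 to 4 calls with ponatinib 10 mg/kg (0 without replicate 2), 1 to 2 with L-NAME, and ponatinib 10 mg/kg gave 0 to 1 against ponatinib 3 mg/kg, 0 to 1 against imatinib and 0 to 3 against nilotinib 30 mg/kg. Calls over all genes in these fits ran from 1376 to 2508 with ponatinib 10 mg/kg (1970 without replicate 2) and from 1302 to 1799 with L-NAME. For ponatinib 10 mg/kg they were 48 to 658 against ponatinib 3 mg/kg, 99 to 211 against imatinib and 117 to 330 against nilotinib 30 mg/kg. The acute-phase genes gave 1 to 6 calls with ponatinib 10 mg/kg and 0 to 2 with L-NAME. The single call without ponatinib 10 mg/kg replicate 2 was lower, so the number called higher with ponatinib 10 mg/kg ran from 0 to 6. The other zinc family genes gave 0 to 1 with imatinib, 0 to 1 with nilotinib 10 mg/kg and 1 to 2 with L-NAME. Calls over all genes ran from 1064 to 1713 with imatinib and from 59 to 302 with nilotinib 10 mg/kg. Leaving out mice for the acute-phase and marker counts was added after seeing the data. The causes were not tested. No paired analysis was possible because the labels number the mice in 1 run across all groups, and the replicate numbers used here follow accession order and only name a mouse. The floor of 3 reads limits Slc39a5 most, since it had no read in 5 mice.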
